A study of Mus musculus with 56 samples.

Results

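The 18 liver ribosome footprint libraries of an age series of C57BL/6 mice were ranked by their age labels sorted as text, which gives the order 10m, 1m, 20m, 26m, 32m and 3m, and each gene was tested for a linear trend over these ranks. The libraries are 18 of the 56 in the series, and 3 carry each label. The order is not the order of ages. It stands for a hypothesis that the labels were displaced against the samples by a text sort, so that rank 1 (labelled 10m) would hold the youngest mice and rank 6 (labelled 3m) the oldest. The hypothesis was proposed after marker genes in these same libraries, such as H19 and the immunoglobulin genes, had been seen to go against the labels. The trend is therefore a description of how the libraries line up in this order, and its calls are no independent evidence for it. The labels alone chose which libraries belong together, and no library was moved between label groups.

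Every group was liver or kidney of C57BL/6 mice. The labels name no treatment, transgene or agent for any of them, and the sex is not given in the sources used here. The libraries titled 10m have 11 months in the age field, and the other titles match their age fields of 1, 3, 20, 26 and 32 months. The series describes 2 animals at 32 months and 3 at each other age. The 3 libraries labelled 32m in each tissue and the 4 kidney libraries labelled 3m may therefore share animals, and n counts libraries. The labels do not say whether same-labelled libraries were prepared separately. The p-values and SEs of the trends measure only the spread of the libraries around the fitted line. This spread holds differences between same-labelled libraries and departures of the label means from the line. The kidney footprints, used here as a second tissue, comprise 10 libraries labelled 20m (n = 3), 32m (n = 3) and 3m (n = 4), and the series states that they came from the same mice as the livers.

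Ribosome footprints are the short pieces of mRNA that a translating ribosome shields from nuclease, so their count on a gene follows both the amount of its mRNA and how often it is translated. Liver consists mostly of hepatocytes, which make plasma proteins and carry out fatty acid oxidation, ketone body production and drug metabolism, beside Kupffer cells (the resident macrophages), endothelial, stellate and bile duct cells and passing lymphocytes. The young mouse liver still expresses fetal genes that are silenced in the weeks after birth, and the old mouse liver is known for gathering immune cells. In whole tissue, more cells of a type and more RNA per cell cannot be told apart.

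Total counts ran from 7985755 to 26921222 per liver library and from 10388818 to 30517983 per kidney library. Hepatocyte and kidney markers in the liver footprints fitted the tissue label. Alb, the main plasma protein, lay between 30500 and 124000 CPM (CPM is a gene's count scaled to the total of its library). Kap, of the proximal tubule, was at 13.3 CPM in replicate 1 of 1m and at most 1.15 CPM in the other liver footprints. Replicate 1 of the 3m libraries stood apart. Its median correlation of log2 CPM across genes with the other liver footprints was 0.904, against 0.945 to 0.976 for the rest, and it had the lowest Alb level. On the first principal component, with 29.3% of the variance, it lay at −107.1 and replicate 2 of 3m at −49.37, while all others lay between −18.14 and 42.1. The second component (20.4%) placed the 3 libraries labelled 10m between 55.63 and 65.12 and all others at or below 9.674. In kidney, replicate 2 of 3m stood apart, with a median correlation of 0.9 against 0.966 to 0.984. Many of the counts and named genes that change without these 2 libraries are given both ways.

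Over the 6 ranks, 1582 of 13608 genes tested (11.6%) had a linear trend in edgeR's quasi-likelihood test at a Benjamini-Hochberg adjusted p under 0.05. Of these, 1115 rose from rank 1 to rank 6 (8.19% of the genes tested) and 467 fell (3.43%). Without rank 1, the libraries labelled 10m, 1870 genes (13.7%) had a trend over ranks 2 to 6, of which 1424 rose (10.5%) and 446 fell (3.28%). Both fits called 986 genes with the same sign, 846 rising and 140 falling, and 2 with opposite signs. These make up 62.3% of the calls over 6 ranks and 52.7% of those over 5 ranks, and the fits share 15 libraries. Without rank 6, the libraries labelled 3m, 550 genes (4.04%) had a trend over ranks 1 to 5, with 252 rising (1.85%) and 298 falling (2.19%). Leaving out replicate 1 of 3m alone gave 724 genes over 6 ranks, 465 rising and 259 falling, of which 650 were among the 1582. It gave 471 genes over ranks 2 to 6, 346 rising and 125 falling.

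A difference among the 6 labels in any pattern was called for 2325 genes (17.1%), and for 1292 of these a linear trend was not called. A departure from a straight line was called for 792 genes (5.82%), of which 103 were among the 1582 trending genes (6.51% of them). The 792 became 371 without replicate 1 of 10m and 2220 without replicate 3 of 3m. Label means that went up at every step of the 6 ranks were seen for 91 genes (0.669% of those tested), and means that went down at every step for 50 (0.367%). Over ranks 2 to 6, means went up at every step for 401 genes (2.95%), of which 297 were called, and down for 305 (2.24%), of which 122 were called. The median absolute slope of the 1582 genes was 0.28 log2 per rank. The median slope over all genes tested was −0.0013 log2 per rank over 6 ranks and 0.0022 over 5.

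Genes that fell over the ranks included metabolic enzymes and lipid carriers of the hepatocyte as well as regulators with a low level. Tcf24, a basic helix-loop-helix transcription factor, had 32.4, 20.2 and 21.5 CPM in the libraries labelled 10m and 15.3, 0.552 and 1.62 CPM in those labelled 1m. It had 0.794, 0.641 and 1 CPM at 20m, 0.127, 0.514 and 0.277 CPM at 26m, 0.235, 0.571 and 0 CPM at 32m, and 0.133, 0.111 and 0.119 CPM at 3m. Its label means fell at every step, the 10m libraries overlapped with no other, and from 26m on the values were near the level of a few counts, with 3 counts corresponding to 0.111 to 0.343 CPM in those libraries. The slope was −1.77 ± 0.17 log2 per rank (SE, adjusted p = 2.75e-05, edgeR), and −1.47 without 10m. 

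Hamp2, a paralog of the iron hormone hepcidin, had 74.3, 51.6 and 115 CPM at 10m, 12.6, 5.87 and 8.08 CPM at 1m, and 18.7, 6.47 and 8.89 CPM at 20m. At 26m it had 1.78, 0.823 and 2.65 CPM, at 32m 8.16, 1.26 and 3.34 CPM, and at 3m 0.733, 2.64 and 1.9 CPM. The 10m libraries lay above all others, 1m and 20m overlapped, and the last 3 labels lay below those apart from replicate 1 of 32m. A departure from a line was called (adjusted p = 0.0285, edgeR). The slope was −1.04 ± 0.14 over 6 ranks and −0.63 over 5.

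Bdh1, which interconverts the ketone bodies acetoacetate and 3-hydroxybutyrate, fell by a smaller step and more evenly. It had 271, 324 and 390 CPM at 10m, 210, 184 and 217 CPM at 1m, 241, 190 and 214 CPM at 20m, 169, 182 and 193 CPM at 26m, 143, 131 and 93.8 CPM at 32m and 81.6, 122 and 134 CPM at 3m. The 3 libraries labelled 10m lay above all others, and those labelled 32m and 3m lay below all others. Its slope was −0.32 ± 0.04 log2 per rank (SE, adjusted p = 0.000355, edgeR) over 6 ranks and −0.27 over 5.

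Fabp1, the fatty acid binding protein of liver, had 1229, 1159 and 1171 CPM at 10m, 602, 946 and 862 CPM at 1m, and 821, 2117 and 892 CPM at 20m. It had 604, 727 and 736 CPM at 26m, 431, 646 and 446 CPM at 32m, and 145, 220 and 418 CPM at 3m. The 3m libraries were the lowest 3 of the 18, and replicate 2 of 20m was the highest. Over ranks 1 to 5 the slope of −0.28 was not called (adjusted p = 0.18, edgeR), against −0.42 ± 0.10 (SE) over all 6.

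The other genes with the lowest slopes had values from −0.67 to −0.26 log2 per rank over 6 ranks. They were Ugt2b38, a glucuronosyltransferase, Tceal8, Fkbp11, a prolyl isomerase of the endoplasmic reticulum, Cd276, an immune checkpoint protein, Chrna2, a nicotinic receptor subunit, Fabp2, the fatty acid binding protein of gut, Hsd17b2, which oxidises sex steroids, and Adck5. Tceal8 had a mean of 14.1 ± 0.914 CPM (SD, n = 3) at 10m and 3.12 ± 1.93 CPM (SD, n = 3) at 3m, with a slope of −0.46 ± 0.06 (SE). Ugt2b38 was highest in the libraries labelled 1m, at 18.4 to 21.7 CPM, and not in those labelled 10m, at 6.81 to 12.9 CPM. Adck5 likewise had 35.6 to 39.2 CPM at 1m and 20.4 to 33.8 CPM at 10m, so its highest label was the second rank.

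**Figure D1:**
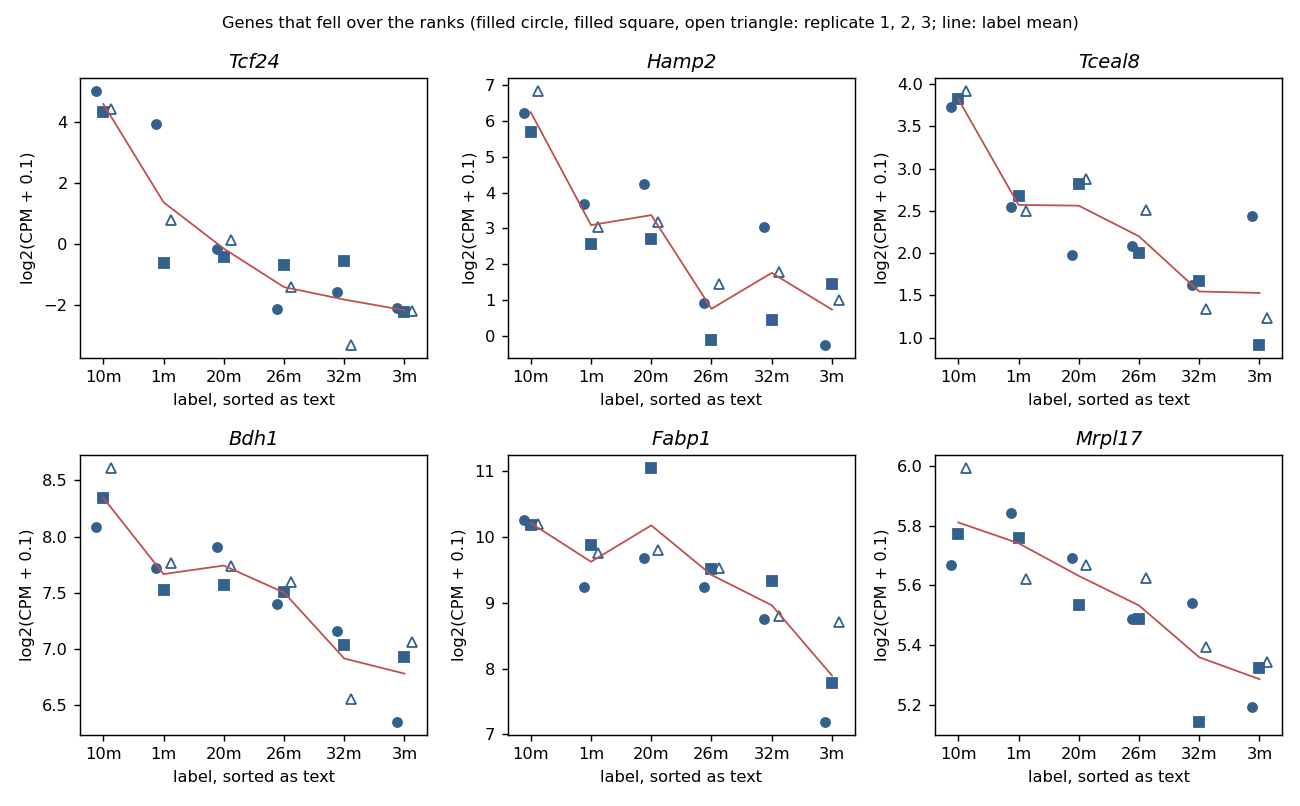
Levels of 6 genes that fell over the ranks, as log2 of CPM plus 0.1 (y axis), in each of the 18 liver footprint libraries by label in text-sorted order (x axis), with symbols for the replicate number and a line through the label means. The libraries labelled 10m lie highest for Tcf24, Hamp2, Tceal8 and Bdh1, while Fabp1 has its highest value in replicate 2 of 20m and Mrpl17 declines in small steps.

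The 12 named genes that rose over the ranks included 2 chemokines, an antibody gene and several myeloid proteins, and also genes of other kinds. Cxcl13, Clec4n, Plek and Ccl6 were far higher in replicates 1 and 2 of 3m than in replicate 3. Cxcl13, the chemokine that attracts B cells to lymphoid follicles, had 0.327, 0.619 and 0.51 CPM at 10m, 0.68, 1.73 and 0.844 CPM at 1m, and 1.02, 0.641 and 0.626 CPM at 20m. It had 0.51, 0.823 and 1.38 CPM at 26m, 4.34, 2.4 and 4.15 CPM at 32m, and 436, 33.8 and 1.25 CPM at 3m. Replicate 3 of 3m thus lay among the libraries of the first 4 ranks, and the 32m libraries above all of them. The slope of 1.78 ± 0.27 log2 per rank (SE, adjusted p = 0.001, edgeR) was 0.945 without replicate 1 of 3m and 0.59 (adjusted p = 0.0113) without all 3 libraries labelled 3m.

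Ighg1, the constant region of the antibody class IgG1, was at 0 CPM in all 3 libraries labelled 10m, where 3 counts would be 0.219 to 0.327 CPM. It had 0.0972, 0.069 and 0.211 CPM at 1m, 0.51, 0.833 and 6.39 CPM at 20m, 0.319, 0.514 and 10.8 CPM at 26m, 0.822, 4.34 and 43.3 CPM at 32m, and 45.8, 7.24 and 2.73 CPM at 3m. All libraries of the last 4 ranks lay above all libraries of the first 2, and the spread within each of these 4 labels exceeded 10-fold. Its fitted slope of 1.49 ± 0.30 (SE) depends on the prior count because of the libraries at 0 and is no bound.

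Nebl, which encodes the actin-binding protein nebulette, had 0.981, 0.542 and 0.438 CPM at 10m, 1.26, 0.552 and 0.281 CPM at 1m, and 2.04, 1.34 and 6.89 CPM at 20m. It had 9.55, 7.71 and 8.89 CPM at 26m, 12.6, 15.7 and 10.4 CPM at 32m, and 9.93, 25.2 and 11.6 CPM at 3m. The libraries of the first 2 ranks were all below those labelled 20m, and these were all below those of the last 3 ranks. Here replicate 1 of 3m was the lowest of its label, and the slope of 1.00 ± 0.12 log2 per rank (SE, adjusted p = 0.000158, edgeR) was 1.08 without it and 1.23 without all libraries labelled 3m.

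Cyp26a1, the hydroxylase that clears retinoic acid, had 5.67, 2.94 and 3.28 CPM at 10m, 17.9, 34.9 and 21.6 CPM at 1m, and 21.4, 29.2 and 15.9 CPM at 20m. It had 40.6, 60.8 and 54.9 CPM at 26m, 192, 44.1 and 54.8 CPM at 32m, and 80, 137 and 99.6 CPM at 3m. The 10m libraries lay below all others, 1m and 20m overlapped, and all later libraries lay above those. The slope was 0.79 ± 0.11 (SE) over 6 ranks, 0.61 over 5 and 0.94 without 3m.

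The other genes with the highest slopes had 0.59 to 0.88 log2 per rank over 6 ranks. They were Ntrk2, the receptor of brain-derived neurotrophic factor, the acute phase protein Orm3, the myeloid receptor Clec4n, pleckstrin (Plek), Ifi27l2b, the actin-capping Capg, the matrix glycoprotein Emilin2 and the chemokine Ccl6. Clec4n had 102 and 24.9 CPM in replicates 1 and 2 of 3m and 5.17 CPM in replicate 3, with 1.48 to 7.47 CPM in all libraries of the other labels. Ccl6 had 273, 59.8 and 11.7 CPM at 3m and 4.42 to 23.1 CPM elsewhere, and its slope was not called without replicate 1 of 3m (0.306, adjusted p = 0.0621, edgeR). Ntrk2 went the same way within 3m, at 84.8, 31.8 and 4.57 CPM, and had 7.41 to 38.5 CPM at 26m.

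**Figure D2:**
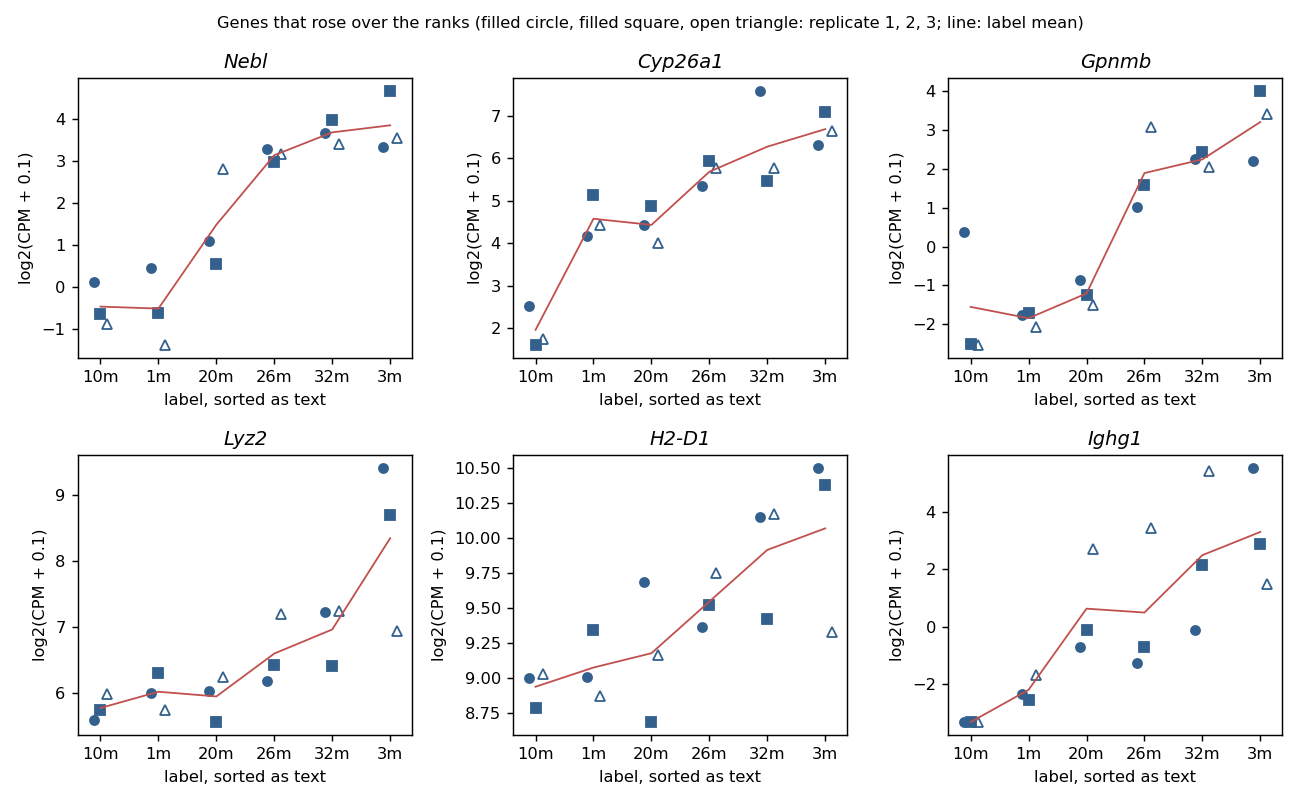
Levels of 6 genes that rose over the ranks, as log2 of CPM plus 0.1 (y axis), in each of the 18 liver footprint libraries by label in text-sorted order (x axis), with symbols for the replicate number and a line through the label means. Nebl, Cyp26a1 and Gpnmb are high in all libraries of the last 3 ranks, while for Lyz2 and H2-D1 replicate 3 of 3m lies well below replicates 1 and 2, and Ighg1 sits at the floor of the scale in the 10m libraries.

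Most tested members of the B cell, macrophage, neutrophil and T cell lists rose over the 6 ranks, against 8.19% of all genes tested. Of all genes, 10.5% rose over ranks 2 to 6 and 1.85% over ranks 1 to 5. With replicate 1 of 3m left out, 465 of all 13608 genes rose over 6 ranks and 346 over ranks 2 to 6. Of 18 B and plasma cell markers tested, 15 rose and 1 fell over 6 ranks, with a median slope of 0.576 log2 per rank, and 7 rose and 1 fell over 5 ranks. The falling member was Derl3, a degradation factor of the endoplasmic reticulum that is abundant in plasma cells (slope −0.60 ± 0.13, SE). Without replicate 1 of 3m, 7 of the 18 rose over 6 ranks and 2 over 5. Igha, the constant region of IgA, had 24.4, 13.6 and 1.43 CPM at 3m, 0 to 0.948 CPM at 10m and 1m, and 1.26 to 4.15 CPM at 20m, 26m and 32m. Ms4a1, the B cell antigen CD20, had 8, 3.19 and 1.25 CPM at 3m and 0.146 to 1.98 CPM in all other libraries. The summed level of the list was 12.7 to 16.9 CPM at 10m, 10.6 to 26.2 CPM at 1m, 55.4 to 202 CPM at 20m, 66.8 to 511 CPM at 26m, 132 to 469 CPM at 32m and 52.1 to 1300 CPM at 3m. All libraries of ranks 3 to 6 thus lay above all of ranks 1 and 2, and the last 4 labels overlapped one another.

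Of 24 markers of macrophages and Kupffer cells, 20 rose and none (0) fell over 6 ranks by edgeR (median slope 0.314). Over ranks 2 to 6, 23 rose, against 10.5% of all genes tested. Without replicate 1 of 3m, 9 rose over 6 ranks and 9 over ranks 2 to 6, and without all libraries labelled 3m 5 did. Lyz2, the lysozyme of myeloid cells, had 48.1, 53.4 and 62.8 CPM at 10m, 63.9, 78.7 and 53.5 CPM at 1m, 65.4, 46.9 and 75.6 CPM at 20m, 71.9, 85.3 and 147 CPM at 26m, 149, 85.1 and 151 CPM at 32m, and 679, 412 and 122 CPM at 3m. The first 3 ranks overlapped, all libraries of 32m and 3m lay above them, and the slope of 0.49 ± 0.07 (SE) was 0.30 without 3m. Trem2, a lipid receptor of macrophages, had 0.0567 to 0.552 CPM in all 9 libraries of the first 3 ranks, 1.27 to 2.06 CPM at 26m, 1.6 to 3.14 CPM at 32m, and 31.4, 11.7 and 2.38 CPM at 3m. Gpnmb, a glycoprotein of lipid-laden macrophages, split the same way: it had 0.0729 to 1.2 CPM in the first 3 ranks and 1.91 to 15.8 CPM in the last 3. Its values at 3m were 4.46, 15.8 and 10.6 CPM, so here replicate 1 was the lowest, and its slope of 1.13 ± 0.16 (SE) was 1.22 without that library. Mpeg1, the pore-forming protein of macrophages, had a slope of 0.46 ± 0.08 (SE), with 79.9 to 87.3 CPM at 10m and 120 to 1042 CPM at 3m.

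The summed level of the macrophage list was 7750, 2990 and 1040 CPM in replicates 1, 2 and 3 of 3m, against 574 to 1630 CPM in the other 15 libraries. Of 18 T and NK cell markers, 10 rose over 6 ranks with all libraries and 0 without replicate 1 of 3m (edgeR). Their sum was 277 CPM in that library, 79.3 and 17 CPM in replicates 2 and 3, and 7.94 to 63 CPM elsewhere. Cd4, the co-receptor of T helper cells, had 59.8, 7.43 and 0.356 CPM at 3m and 0.457 to 2.29 CPM elsewhere, so its replicate 3 was the lowest of the 18. Ptprc, the pan-leukocyte antigen CD45, had 149, 39.7 and 11.2 CPM at 3m and 3.46 to 22.8 CPM elsewhere. Of 6 neutrophil markers tested, 5 rose with all libraries and 2 without replicate 1 of 3m. The list's sum was 842, 306 and 14 CPM at 3m and 384, 615 and 27.2 CPM at 26m, against 2.88 to 53.9 CPM elsewhere. It was set mostly by Lcn2, an iron-binding acute phase protein that hepatocytes also make, whose slope was not called (1.05, adjusted p = 0.0768, edgeR). Mpo, the myeloperoxidase of granulocyte precursors, had 18.5 CPM in that library and 3 CPM or less in the other 17. S100a8, a calcium-binding protein of neutrophils, had 28.1 CPM there and 3.19 CPM or less elsewhere. In the macrophage and T cell sums the 3m libraries spread more widely than those of any other label, replicate 1 also has the lowest Alb level, and the part of these differences in the slopes was not tested.

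Antigen presentation genes were also among those that rose. Of 14 MHC class I presentation genes, 8 rose and 0 fell over 6 ranks by edgeR, 14 had a positive slope, and 7 rose without replicate 1 of 3m. H2-D1, a class I heavy chain, had 512, 441 and 524 CPM at 10m, 515, 649 and 470 CPM at 1m, 822, 412 and 574 CPM at 20m, 660, 737 and 861 CPM at 26m, 1134, 687 and 1154 CPM at 32m, and 1446, 1332 and 643 CPM at 3m. Its slope was 0.22 ± 0.04 (SE) over 6 ranks, 0.25 over 5 and 0.24 without 3m. H2-Q6, a class I-like chain whose reads can be shared with close paralogs, had 7.51 to 11.7 CPM at 10m, below all other libraries, and a slope of 0.29 ± 0.06 (SE). Of 12 MHC class II presentation genes, 10 rose over 6 ranks and 3 over 5 ranks, and 1 rose without replicate 1 of 3m. Cd74, the invariant chain, had 32.3 to 54.2 CPM at 10m, 55.6 to 210 CPM in the next 4 labels, and 466, 401 and 80.9 CPM at 3m. Ctss, the cathepsin that trims it, had a slope of 0.31 ± 0.07 (SE), and neither Cd74 nor Ctss was called without replicate 1 of 3m (adjusted p = 0.0683 and 0.0551, edgeR). Of 31 interferon response genes, 3 rose over 6 ranks, a share near the 8.19% of all genes tested, with 30 positive slopes. Over 5 ranks 12 rose, against 10.5% of all genes tested. Without replicate 1 of 3m, 0 rose over 6 ranks and 1 over 5 (edgeR). Irf7, a regulator of interferon genes, had 192, 51.2 and 214 CPM at 32m, 257, 152 and 38.6 CPM at 3m and 26.8 to 76.4 CPM in all others.

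**Figure D3:**
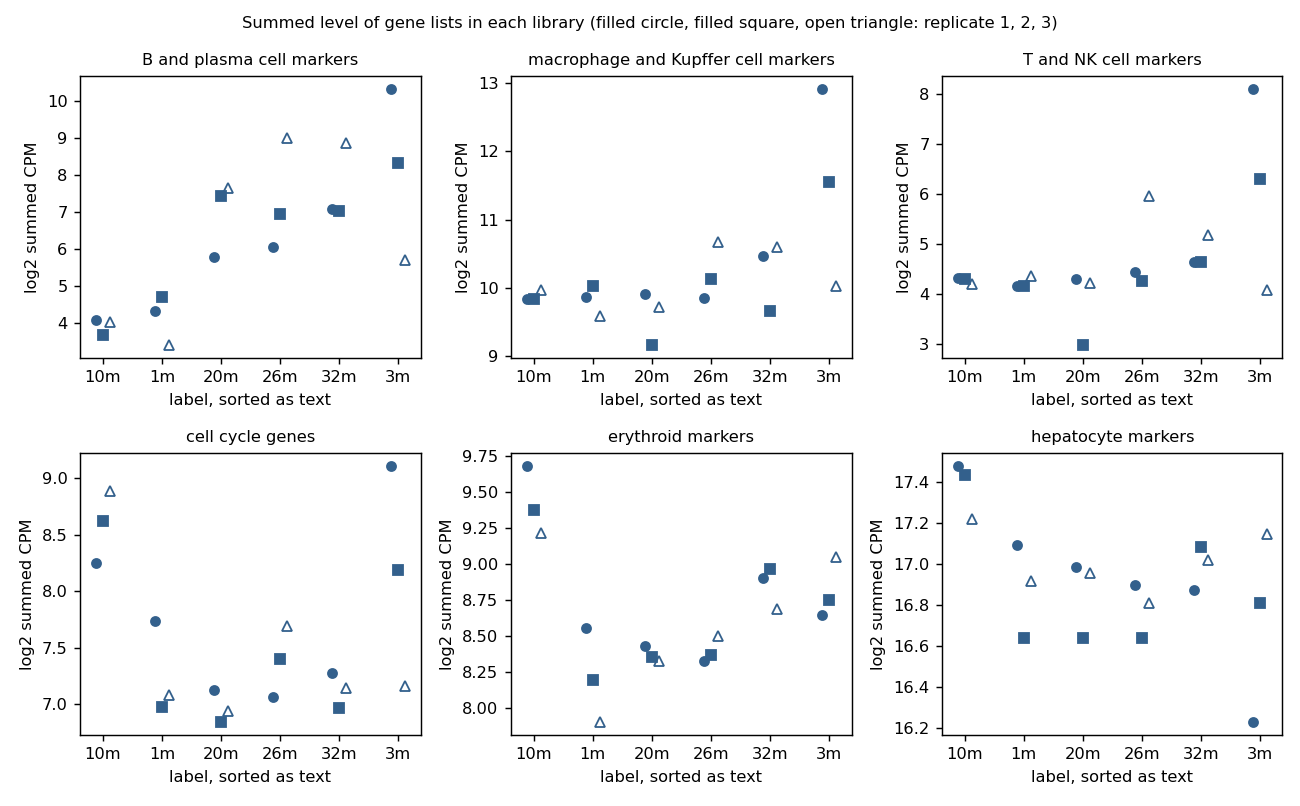
Summed level of 6 gene lists in each of the 18 liver footprint libraries, as log2 of summed CPM (y axis), by label in text-sorted order (x axis), with symbols for the replicate number. The B and plasma cell sum steps up after rank 2, the macrophage and T cell sums are highest in replicates 1 and 2 of 3m and not in replicate 3, the cell cycle sum is high at both ends, the erythroid sum is highest in the 10m libraries, and the hepatocyte sum is lowest in replicate 1 of 3m.

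In the lists of mitochondrial and secretory genes most members were not called, and the called ones fell, by small slopes. Among all genes tested, 3.43% fell over 6 ranks and 3.28% over ranks 2 to 6. With replicate 1 of 3m left out, 259 of 13608 genes fell over 6 ranks and 125 over ranks 2 to 6. Of 27 fatty acid oxidation genes, 7 fell and 0 rose by edgeR over 6 ranks, 0 had a positive slope, and the median slope was −0.0978 log2 per rank. Over ranks 2 to 6, 3 fell, and over 6 ranks without replicate 1 of 3m, 3 fell. Decr1, an enzyme for unsaturated fatty acids, had 216 to 246 CPM at 10m, 151 to 224 CPM in the next 4 labels, and 106, 136 and 136 CPM at 3m, the lowest 3 of the 18 libraries. Hadhb, a subunit of the trifunctional protein, had 111 to 119 CPM at 10m and 55.3, 69.4 and 86.7 CPM at 3m. Bdh1, described above, belongs to the same list.

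Of 44 mitochondrial ribosomal proteins, 13 fell and 0 rose over 6 ranks by edgeR, with 1 positive slope and a median of −0.0782. Over 5 ranks, 13 fell as well, and without replicate 1 of 3m 3 fell in either fit. Mrpl17, of the large subunit, had 50.7, 54.6 and 63.6 CPM at 10m and 36.5, 39.9 and 40.5 CPM at 3m, with 35.2 to 57.2 CPM between, and a slope of −0.14 ± 0.02 (SE, adjusted p = 0.00236, edgeR). Mrps22, of the small subunit, had 15.9 to 20.6 CPM at 1m and 11.1 to 12.2 CPM at 3m. Of 48 oxidative phosphorylation subunits, 2 fell, a share near the 3.43% of all genes, and 0 fell without replicate 1 of 3m (edgeR). The median slope was −0.0698, with 1 positive slope. Cox7b, a subunit of cytochrome c oxidase, had a slope of −0.11 ± 0.03 (SE), which was not called without replicate 1 of 3m. In contrast, 0 of 50 cytosolic ribosomal proteins were called over 6 ranks by edgeR, DESeq2 or limma (2 at an unadjusted p under 0.05 in edgeR), and their median of −0.025 was 0.00513 when libraries were scaled by total count only.

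Of 32 chaperones and secretory pathway genes of the endoplasmic reticulum, 5 fell and 0 rose over 6 ranks by edgeR, and 7 fell over 5. Without replicate 1 of 3m 3 fell in either fit. Pdia6, a disulfide isomerase, had label means that fell at every step, from 266.8 ± 45.9 CPM (SD, n = 3) at 10m to 161.4 ± 15.6 CPM (SD, n = 3) at 3m, with a slope of −0.18 ± 0.03 (SE). Ssr2, of the translocon-associated complex, had 69.1 to 107 CPM at 10m and 45.4 to 50.9 CPM at 3m. Sdf2l1, a cofactor of the chaperone BiP, was highest on average at 1m, at 31.8 to 69.5 CPM. Lysosomal proteins went the other way: 9 of 28 rose over 6 ranks and 10 over 5, against 8.19% and 10.5% of all genes tested. Without replicate 1 of 3m, 3 rose over 6 ranks and 4 over 5. Psap, the precursor of the saposins, had 482 to 606 CPM at 10m, and 1501, 1000 and 681 CPM at 3m. Hmox1, the haem oxygenase, had 279, 108 and 33 CPM at 3m and 14.3 to 80.1 CPM elsewhere, with a slope of 0.47 ± 0.09 (SE), whereas Gclc, of glutathione synthesis, fell with a slope of −0.18 ± 0.04 (SE).

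The counts in the remaining lists are to be read against all genes tested in the same fit. Over 6 ranks 8.19% of all genes rose and 3.43% fell. Over ranks 2 to 6 the shares were 10.5% and 3.28%, and over ranks 1 to 5 1.85% and 2.19%. With replicate 1 of 3m left out, 465 of 13608 genes rose and 259 fell over 6 ranks. Over ranks 2 to 6 these were 346 and 125. In the senescence and damage list 5 of 19 rose over 6 ranks (4 without replicate 1 of 3m), among the 5 Plaur, the urokinase receptor, with 4.73, 2.79 and 0.951 CPM at 3m and 0.194 to 1.23 CPM elsewhere. Of the acute phase genes 2 of 20 rose, Orm3 and Steap4, and 1, Hamp2, fell. The slope of Steap4, a metalloreductase, was 0.28 ± 0.06 (SE). Of the complement and coagulation factors 1 of 29 rose and 2 fell, F11 with a slope of −0.26 ± 0.06 (SE) and Mbl2 with −0.20 ± 0.05 (SE). Mbl2 was high at 10m alone, with a mean of 456.5 CPM against 195.2 to 268.3 CPM in the other labels. It was not called over ranks 2 to 6 (adjusted p = 0.723, edgeR), and a departure from a line was called (adjusted p = 0.0142, edgeR). Cyp3a11, an abundant drug-metabolizing enzyme, had 7523, 8817 and 5295 CPM at 10m and 2023, 4611 and 5191 CPM at 3m, and 3 of the 38 genes of its list fell and 1 rose (1 and 2 without replicate 1 of 3m). Hspb8, a small heat shock protein, and Nfil3, a repressor of the circadian system, had slopes of 0.12 ± 0.04 and 0.25 ± 0.06 (SE), and neither was called without replicate 1 of 3m (adjusted p = 0.105 and 0.0534, edgeR).

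Of the 15 fetal and juvenile genes tested, 4 fell over 6 ranks, and these were high at rank 1 alone rather than falling from rank to rank. The summed level of the whole list, which abundant members set, went the other way, at 1520, 1620 and 1330 CPM at 10m and 1440 to 2250 CPM in the other 15 libraries. Igf2bp3, an RNA-binding protein of the fetal liver, had 21.4, 22.4 and 20.8 CPM in the libraries labelled 10m and at most 0.2 CPM in the other 15. It was at 0 in all libraries labelled 1m and 32m, where 3 counts would be 0.176 to 0.343 CPM. H19, an imprinted fetal transcript, had 12.1, 9.83 and 22.2 CPM at 10m, 0 to 0.514 CPM in the next 4 labels, and 1.93, 1.56 and 0.713 CPM at 3m. Gpc3, an oncofetal proteoglycan, had 4.88 to 7.41 CPM at 10m and 0.626 to 2.17 CPM elsewhere, and Grb10, an imprinted adaptor of growth factor receptors, had 14.4 to 22.9 CPM at 10m and 4.25 to 11.2 CPM elsewhere. For each of these 4 genes the 10m libraries lay above all others. A departure from a line was called for each (adjusted p = 0.00107 for Igf2bp3, 3.43e-05 for H19, 0.0325 for Gpc3 and 0.000946 for Grb10, edgeR). Over ranks 2 to 6 no list member fell by edgeR (0 of 15) and 2 rose, H19 among them with a slope of 0.74. Without replicate 1 of 3m, 5 fell over 6 ranks and 0 rose over ranks 2 to 6.

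Among the female-biased liver genes, 6 of 19 fell and 1, Ntrk2, rose over 6 ranks. Over ranks 2 to 6, 0 of them fell and 7 rose, and without 3m 7 fell and 1 rose. Of all genes tested, 8.19% rose and 3.43% fell over 6 ranks. The shares were 10.5% and 3.28% over ranks 2 to 6, and 1.85% and 2.19% without 3m. Without replicate 1 of 3m, 5 fell and 1 rose over 6 ranks, and 2 rose over ranks 2 to 6. The summed level of the list was 4680, 1920 and 1810 CPM at 10m and 1470, 898 and 1630 CPM at 20m. It was 202 to 621 CPM at 1m and 83.9 to 1090 CPM in the last 3 ranks. In each of the 18 libraries Xist, the transcript of the inactive X chromosome, was at most 0.0774 CPM and the Y-linked Ddx3y at least 23.8 CPM. Footprints follow translation as well as RNA amount, so a low Xist count does not show that its RNA was absent. Hao2, a peroxisomal hydroxyacid oxidase, had 30.5, 15 and 16.9 CPM at 10m, 0 CPM in all 3 libraries labelled 1m, and 0.101 to 1.53 CPM in the others. Abcd2, a peroxisomal fatty acid transporter, had 71.2 to 81.2 CPM at 10m, and 6.28 to 55.7 CPM in the others. Cyp2a22, from the list of drug-metabolizing enzymes, had 28.4 to 45.8 CPM at 10m, 0.276 to 0.422 CPM at 1m, 4.36 to 10.8 CPM at 20m and 0.881 to 3.52 CPM in the last 3 ranks. In these 3 genes the 10m libraries lay above all others, and none was called over ranks 2 to 6 (adjusted p from 0.485 to 0.61, edgeR). Of the male-biased genes, 1 of 21 fell over 6 ranks and 4 fell over 5, with 0 rising in either (edgeR). Without replicate 1 of 3m, 1 fell and 1 rose over 6 ranks, and 2 fell over 5.

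The cell cycle genes were high at both ends of the order. Of 35 members, 0 were called over 6 ranks by edgeR, DESeq2 or limma (3 at an unadjusted p under 0.05 in edgeR). Of the same 35, 11 rose over ranks 2 to 6 and 21 fell over ranks 1 to 5. Among all genes tested, 10.5% rose over ranks 2 to 6 and 2.19% fell over ranks 1 to 5. Their summed level was 305, 394 and 473 CPM at 10m, 115 to 214 CPM in the next 4 labels, and 553, 291 and 143 CPM at 3m. Replicate 3 of 3m thus lay within the middle labels, and without replicate 1 of 3m 0 rose over ranks 2 to 6. Ccnd1, the G1 cyclin, had 54.5, 145 and 184 CPM at 10m, 19.4 to 75.1 CPM in the next 4 labels and 70.6, 81.5 and 32.5 CPM at 3m. Matrix and fibroblast genes had 5 rising and 3 falling members of 30 over 6 ranks, 9 rising over ranks 2 to 6 and 10 falling over ranks 1 to 5. Without replicate 1 of 3m, 3 rose and 6 fell over 6 ranks. Bgn and Dcn, the small proteoglycans biglycan and decorin, and Timp2, an inhibitor of matrix proteases, rose over 6 ranks with slopes of 0.16, 0.15 and 0.25. Bgn had 328, 171 and 197 CPM at 3m, 157 to 168 CPM at 32m and 83.6 to 194 CPM in the first 4 ranks. Of 8 erythroid markers, 0 were called over 6 ranks by any of the 3 tools (0 at an unadjusted p under 0.05 in edgeR). Over ranks 2 to 6, 7 of these markers rose, and 4 did without replicate 1 of 3m. Their sum was 594 to 821 CPM at 10m, 239 to 375 CPM at 1m, 320 to 361 CPM at 20m and 26m, and 400 to 528 CPM at 32m and 3m.

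**Figure D4:**
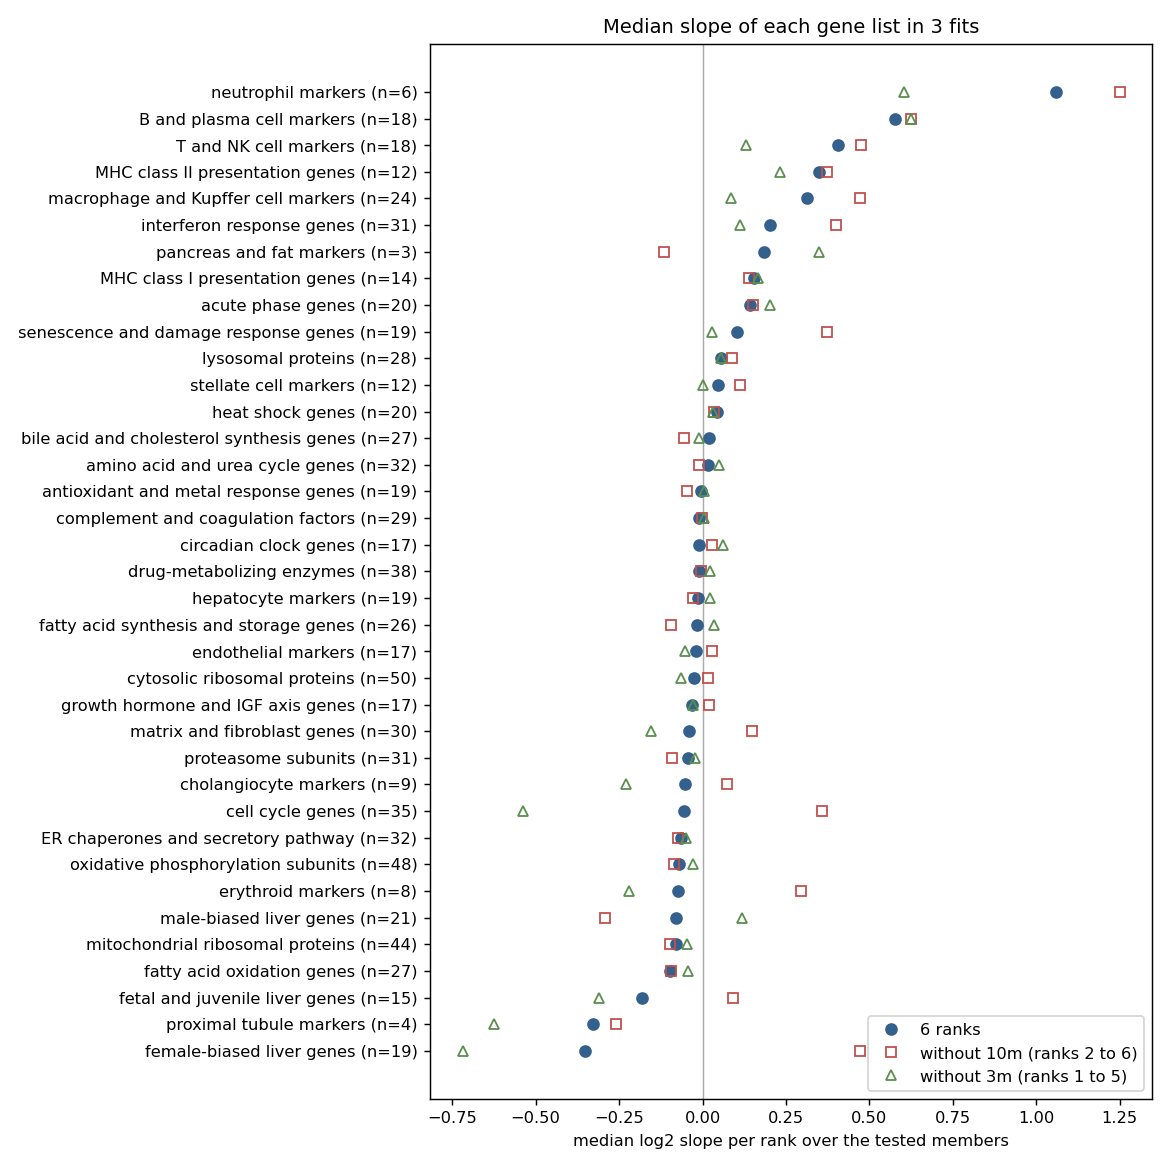
Median log2 slope per rank over the tested members (x axis) of 37 gene lists (y axis, with the number of members tested), fitted over 6 ranks, without the 10m libraries and without the 3m libraries. Immune lists have positive medians in all 3 fits, mitochondrial lists have small negative medians in all 3, and the cell cycle, female-biased, erythroid and fetal lists change sign between the fit without 10m and the fit without 3m.

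The number of trending genes was compared with that in other orders of the labels, keeping the 3 libraries of each label together. For this limma was used on log2 CPM (prior count 2), which called fewer genes than edgeR, and the comparison is a description without a p. With the 5 labels other than 10m there are 60 orders, counting an order and its reverse as 1. The text-sorted order gave 1180 genes, 783 rising and 397 falling, and came in position 3. The order 20m, 1m, 26m, 32m, 3m gave 1735 genes, and 20m, 1m, 32m, 26m, 3m gave 1651. The fourth, 1m, 20m, 32m, 26m, 3m, gave 996, and the next gave 72. These 4 orders differ from each other only by exchanging 1m with 20m or 26m with 32m, and all have 3m at one end. The calendar order of the labels gave 0 genes in limma and 0 in edgeR (743 in edgeR at an unadjusted p under 0.05), as did 32 of the 60 orders in limma.

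With all 6 labels, 40 of the 360 orders were run, of which 38 were drawn at random. The text-sorted order gave 965 genes, 624 rising and 341 falling, and came in position 3 of the 40 orders run. Its position among all 360 is not known. The order 10m, 3m, 32m, 26m, 1m, 20m, which has 3m beside 10m, gave 1215 genes, and 20m, 10m, 1m, 26m, 32m, 3m gave 1057. In all, 8 of the 40 orders gave more than 100 genes, 18 gave 0, and the median was 1.5. The calendar order gave 0 in limma and 0 in edgeR, with 740 genes at an unadjusted p under 0.05 in edgeR. Among the orders run, the text-sorted order was therefore near the top in trending genes and was not the one with the most in either set. Its ends are the libraries labelled 10m and 3m, which lie apart on the principal components, replicate 3 of 3m excepted.

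**Figure D5:**
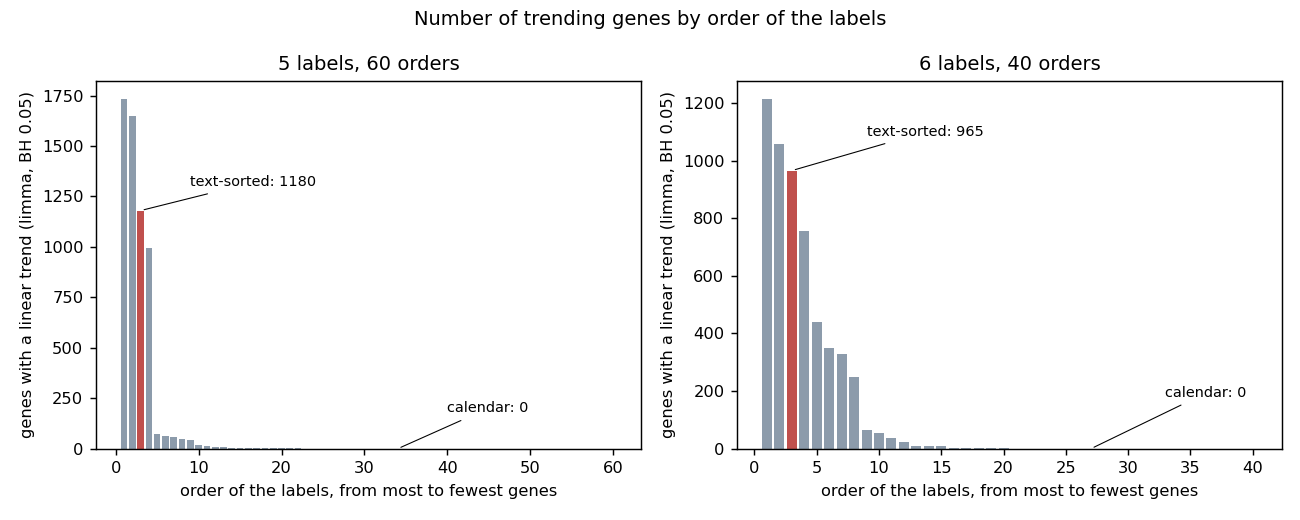
Number of genes with a linear trend (y axis, limma, adjusted p under 0.05) for each order of the labels run, sorted from most to fewest genes (x axis), with 5 labels in the left panel and 6 labels in the right panel. The text-sorted order is in position 3 of all 60 orders with 5 labels (1180 genes). With 6 labels it is in position 3 of the 40 orders run out of 360 (965 genes). The calendar order has 0 in both.

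Leaving out a label at one end shows where its libraries lie for genes called without them. Of the 252 genes that rose over ranks 1 to 5, 233 (92.5%) had a 3m mean above the mean of the other 5 labels, against 50% of all genes tested. Taken by library, 74.2%, 92.1% and 79.8% of the 252 were above in replicates 1, 2 and 3. Of the 298 genes that fell over ranks 1 to 5, 134 (45%) had a 3m mean below the others, against 50% of all genes, and by library these were 37.2%, 50.7% and 74.5%. The reference is the mean of 5 labels and not the neighbouring rank, so these shares do not show that a slope went on from 32m to 3m. Of the 1424 genes that rose over ranks 2 to 6, 900 (63.2%) had a 10m mean below the other 5 labels, against 53.2% of all genes. By library these were 52.2%, 66% and 61.5% in replicates 1, 2 and 3 of 10m. Of the 446 that fell, 207 (46.4%) had a 10m mean above, against 46.8% of all genes, and by library these were 29.6%, 46.9% and 72%. The 5 labels of this reference are those on which the genes were called.

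With both ends left out, 79 genes had a trend over the 4 labels 1m, 20m, 26m and 32m, 65 rising and 14 falling. This fit was added after the data were seen. Of the 65, 59 (90.8%) had a 3m mean above the mean of the 4 labels, against 48.9% of all genes, and 47 (72.3%) had a 10m mean below it, against 52.8%. Of the 14, 13 had a 3m mean below and 5 had a 10m mean above. For the 846 genes rising in both main fits, the median deviation from the gene's mean over the 18 libraries was 2.15, 1.15 and 0.0651 log2 in replicates 1, 2 and 3 of 3m. It lay between −0.117 and 0.389 at 32m, between −0.166 and 0.393 at 26m, and between −0.619 and −0.232 in the 9 libraries of the first 3 ranks. These genes were chosen on these libraries, so the values describe them and test nothing.

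The kidney footprints gave a second tissue for the same text sort, with the ranks 20m, 32m and 3m. No gene was called by edgeR among 14621 tested (0%), while the unadjusted p was under 0.05 for 2353 genes (16.1%) and the lowest adjusted p was 0.0559. In contrast, DESeq2 called 561 genes and limma 9. Without replicate 2 of the kidney 3m libraries, edgeR called 424 genes, 269 rising and 155 falling. Of the liver genes rising in both fits, 755 were tested in kidney, and 605 of these (80.1%) had a positive kidney slope, against 50.6% of the 12686 genes tested in both tissues. Of 124 falling liver genes, 103 (83.1%) had a negative kidney slope, against 49.4%. Without replicate 2 of kidney 3m the shares were 81.2% and 87.1%. For liver genes called in both fits without replicate 1 of liver 3m, they were 132 of 166 (79.5%) and 26 of 35 (74.3%). The kidney and liver libraries are different, but since the series states that they came from the same mice the tissues are not independent.

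Ighg1 had 0.0996, 0.0803 and 0.289 CPM in kidney at 20m, 0.144, 4.71 and 5.63 CPM at 32m, and 8, 31.5, 30.8 and 2.15 CPM at 3m. Lyz2 had 28, 23.2 and 25.1 CPM at 20m, 20.8, 39 and 40.1 CPM at 32m, and 48.3, 56.8, 87.6 and 42.5 CPM at 3m. For both genes the 20m libraries lay below all 3m libraries. Those labelled 32m overlapped with 20m in both genes, and with 3m for Ighg1. Gpnmb had 0.193 to 0.697 CPM at 20m, 0.144 to 1.03 CPM at 32m and 1.86 to 4.81 CPM at 3m, where the 3m libraries lay above all others. The kidney slopes of Ighg1 (2.96), Lyz2 (0.606) and Gpnmb (1.36) each had an adjusted p of 0.106 (edgeR) and were not called. Nebl and Tcf24, which moved over the ranks in liver, had kidney slopes of 0.127 and 0.0209 (adjusted p = 0.75 and 0.902, edgeR). By list, 16 of 16 B and plasma cell markers tested in kidney, 14 of 14 MHC class I presentation genes and 19 of 20 macrophage markers had a positive kidney slope, with the same counts without replicate 2 of kidney 3m. Of 31 proteasome subunits 0 had a positive kidney slope and of 48 oxidative phosphorylation subunits 1 did, but without that library these were 6 and 21, with medians of −0.0482 and −0.00468 against −0.164 and −0.129. In liver, 0 of the 31 proteasome subunits were called over 6 ranks by edgeR (8 at an unadjusted p under 0.05) or limma, and 3 fell in DESeq2. Over 5 ranks 6 fell in edgeR, and 1 did without replicate 1 of liver 3m.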

How the data were processed

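The values are read counts per gene, deposited by the authors unnormalized in a joint table of the 56 libraries and in separate ones. All 28 footprint tables were identical to their columns in the joint table. Per the submitters' processing notes, the tools include cutadapt 1.14 and STAR 2.5.3, and the build is mm10. The counting tool is not given in the sources used here. Symbols were found for 49998 of the 50222 identifiers. Only footprint libraries were used, and RNA libraries were not analysed here. Libraries were grouped by the label in the title.

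In R 4.3.3 and edgeR 4.0.16, genes passing filterByExpr (minimum count 10) were tested for a slope on rank with TMM scaling and robust quasi-likelihood fits, two-sided, with Benjamini-Hochberg adjustment at 0.05. The SE of a slope is its size over the square root of the F statistic. CPM levels use the library total, without TMM. Replicate 1 of 3m had the highest TMM factor, 1.3, so its plain CPM and its scaled level differ most. A count of 3 sets the floor, which covers counting error only. Orders were compared with limma 3.58.1. The fits were tested on simulated counts. DESeq2 1.42.0, other scalings, filters and left-out libraries were alternatives.

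The named genes are those called with the same sign over 6 and 5 ranks with a mean of at least 5 CPM, 402 rising and 110 falling, of which the 12 highest and 12 lowest slopes are given, leaving out gene models without a curated name and antibody variable segments. For each of 37 lists, the called members with the 4 lowest adjusted p-values were eligible, or the 2 of highest level where none was called. The 37 lists hold 890 members, of which 839 were tested, and not every eligible gene is reported here. The order, the lists and the rules were chosen with earlier results of these data known.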

Additional observations from a re-analysis of the deposited data

How the results depend on the processing

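Counts of trending genes over 6 ranks (1582) and over ranks 2 to 6 (1870) stayed within 1.5 times under other scalings, filters, DESeq2 and age-spaced steps. With library size as the only scaling the 6-rank calls split into 1435 rising and 272 falling (84.1% rising against 70.5%). Limma gave 965 and 1180. The calendar order gave 0 in both fits. Without the 3m libraries 550 and 79 were called, the latter also the count with the inner 4 labels. With each library left out the counts ran from 724 (without replicate 1 of 3m) to 1824 over 6 ranks, with 903 without replicate 2 of 3m, and from 471 (without replicate 1 of 3m) to 2569 (without replicate 1 of 32m) over 5, with 1170 without replicate 2 of 3m. The 1582 genes kept their sign with every single library left out. Any difference among labels ran from 1528 to 3802 genes (without replicates 1 and 3 of 3m), and departure from a line from 371 (without replicate 1 of 10m) to 2220 (without replicate 3 of 3m). In kidney, 0 genes became 6 without a filter, 561 in DESeq2 and 9 in limma, and 0 to 424 with a library left out, the most without replicate 2 of 3m. 

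A replicate block gave 1134 genes over 6 ranks, 1347 over 5 and 3 in kidney. The numbers do not pair the libraries: same-numbered liver libraries of different labels had a mean correlation of deviations of −0.042 over 45 pairs, and differently numbered ones 0.0209 over 90. 

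Slopes of named genes that changed sign did so in the calendar order or with the inner 4 labels. In the calendar order they were 0.0098 for Fabp1, 0.0011 for Chrna2, −0.382 for Ccl6, −0.359 for Emilin2, −0.196 for Capg, −0.36 for Plek, −0.379 for Clec4n, −1.13 for Cxcl13, −0.221 for Igha, −0.13 for Ms4a1, −0.059 for Ctss, −0.132 for Cd74, −0.317 for Trem2, −0.127 for Lyz2, −0.0355 for Mpeg1, −0.287 for Mpo, −0.463 for S100a8, −0.198 for Ptprc, −0.679 for Cd4, −0.175 for Plaur, −0.0454 for Timp2, 0.0284 for Decr1, 0.0178 for Hadhb, 0.0105 for Cox7b and −0.114 for Hmox1. With the inner 4 labels they were 7.41e-06 for Igf2bp3, 0.205 for H19, 0.011 for Grb10 and −0.0035 for Cd4. None of these was called (adjusted p of 0.819 or more, edgeR). The cause was not tested, other than that fewer libraries enter the fit with 4 labels. Transcripts near the floor of 3 counts, such as Igf2bp3 outside 10m, are limited by depth.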
